A study of Mus musculus with 12 samples.

Results

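The genes described here encode subunits of Polycomb repressive complex 1 (PRC1), a chromatin complex that silences genes. All 10 genes of the set (Ring1, Rnf2, Bmi1, Pcgf2, Pcgf6, Cbx2, Cbx7, Cbx8, Scml2 and Scmh1) were found among the 55487 Ensembl mouse genes of the table, by matching gene identifiers to symbols. The rule names them and uses no values, but the set was chosen with earlier results of these data known. All 10 passed the filter on low counts. RNA was sequenced from gonocytes, the male germ cells that precede spermatogonia, in 3 libraries per stage: E13.5 and E16.5 (days of embryonic development), P0 (birth) and P3 (day 3 after birth). The cells came from testes of Mvh-Venus mice, in which a fluorescent protein follows Mvh (Ddx4), a gene of the germ line. How many animals stand behind a library is not given in the sources used here, so p-values measure only the spread between these libraries, which may be technical.

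All 12 samples are wild type by title and source name, whereas the genotype tag reads Morc1 (+/-) at E13.5 and P0 and Morc1 (-/-) at E16.5 and P3. Morc1 itself had 1697 ± 115, 31378 ± 2641, 7496 ± 214 and 10881 ± 276 normalized counts from the earliest stage to the latest (mean ± SD, n = 3, as throughout). Whether the disrupted part of the gene is among the counted exons is not given in the sources used here, so these levels check neither label. Samples are therefore grouped by stage. Between consecutive stages, and between E13.5 and P3, stage and tag cannot be told apart, while P0 against E13.5 and P3 against E16.5 each stay within 1 tag.

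PRC1 attaches ubiquitin to histone H2A through a RING subunit (RING1 or RNF2) that is paired with 1 of several PCGF proteins. Canonical complexes hold PCGF2 or BMI1 together with a CBX protein, which binds the histone mark left by PRC2, and with PHC and SCM proteins that link complexes to each other. Variant complexes hold RYBP or YAF2 in place of CBX, and the one built on PCGF6 binds DNA through MGA, MAX and E2F6. In germ cells PRC1 is known for holding back meiotic genes and genes of other tissues.

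A normalized count is a read count divided by the size factor of its library, as deposited. Libraries held 40946616 to 51533747 reads in genes, and no pair of libraries of a stage agreed within sampling noise. Size factors lay between 1.84 and 2.07 at P0 and between 0.919 and 1.263 at the other stages, so comparisons with P0 depend on them. The share of called genes that were higher was 45.2% for P0 against E16.5 but 78.7% with equal library totals in place of these factors and 59.6% with median-of-ratios factors. For P3 against P0 these shares were 52.4%, 25.2% and 38.4%. Equal totals also changed this share for E16.5 against E13.5 (56.8% became 70.1%), P0 against E13.5 (53.0% became 77.2%) and P3 against E13.5 (55.7% became 68.9%). For P3 against E16.5 it went from 49.3% to 41.8%. Equal totals moved the median of the log2 fold changes over all genes by 1.31 for P0 against E13.5, by 0.69 for P0 against E16.5. For P3 against P0 this median moved by -0.91. All 8 germ cell markers were above 3 reads at every stage. Their summed normalized counts were 325289 to 339869, 250001 to 274103, 133941 to 142393 and 227364 to 245346 in stage order. The sum was lowest at P0 under the size factors of the file, but not with equal library totals. These marker sums and those below depend on the factors, so less germ cell signal at P0 is not read from them. Summed normalized counts of 6 Leydig cell markers were, in stage order, 573 to 729, 623 to 7763, 1133 to 6201 and 179 to 267, highest in E16.5 library 4 and P0 library 1; Insl3 was at or under 3 reads at E13.5 and P3. Those of 6 Sertoli cell markers were 893 to 1479.9, 1237 to 2394, 2702 to 4956 and 1051 to 1668, and those of 5 peritubular markers 171 to 224, 1253 to 1867, 3699 to 4160.4 and 797 to 916. Those of 6 blood cell markers were 68.4 to 411, 1777 to 2473, 1604 to 2527 and 310.3 to 549.6. Of 6 mast cell markers 5 were at or under 3 reads at E13.5. Among these, the proteases Tpsb2, Cpa3 and Cma1 were at 0 in every E13.5 library. Tpsb2 had 9.30 to 15.8 normalized counts at E16.5, 655 to 1296 at P0 and 129 in P3 library 3, with 0 in the other P3 libraries. Cpa3 had 4.77 to 8.71 at E16.5, 188 to 627 at P0 and 82.5 in P3 library 3. Cma1 had 3.72 to 7.91, 278 to 579.6 and 75.6 in the same places. All 3 proteases were highest in the P0 libraries, as was Mcpt4 (56.5 to 195 normalized counts there). Kit and Fcer1a, also on the list, went another way. Kit had 6229 to 8113 at E13.5 and 1210 to 1403 at P0, and Fcer1a had at most 2.17 at P0. The part of mast cells in the results for P0 was not tested.

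All 10 PRC1 genes differed among the 4 stages, as did 95.2% of the 22384 genes tested (limma F-test on log2(normalized count + 1), Benjamini-Hochberg adjusted p under 0.05 over all genes tested). The range between a gene's highest and lowest stage mean ran from 2.68-fold for Pcgf2 to 5.14-fold for Ring1. E13.5 had the highest mean of 5 genes (Ring1, Rnf2, Pcgf2, Pcgf6 and Cbx7), P0 of 2 (Bmi1 and Cbx8), P3 of 3 (Cbx2, Scml2 and Scmh1) and E16.5 of none. The mean was lowest at E16.5 for Rnf2, Bmi1, Pcgf2 and Scmh1, at P0 for Pcgf6, Cbx2, Cbx7 and Scml2, at P3 for Ring1 and at E13.5 for Cbx8. These places hold under the size factors of the file, and some changed with equal totals. There, P0 was above E13.5 for Rnf2 (log2 fold change 0.10), Pcgf2 (0.64), Cbx2 (0.051) and Scml2 (1.09). In a bulk sample, fewer cells of a type and less RNA per cell cannot be told apart.

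**Figure D1:**
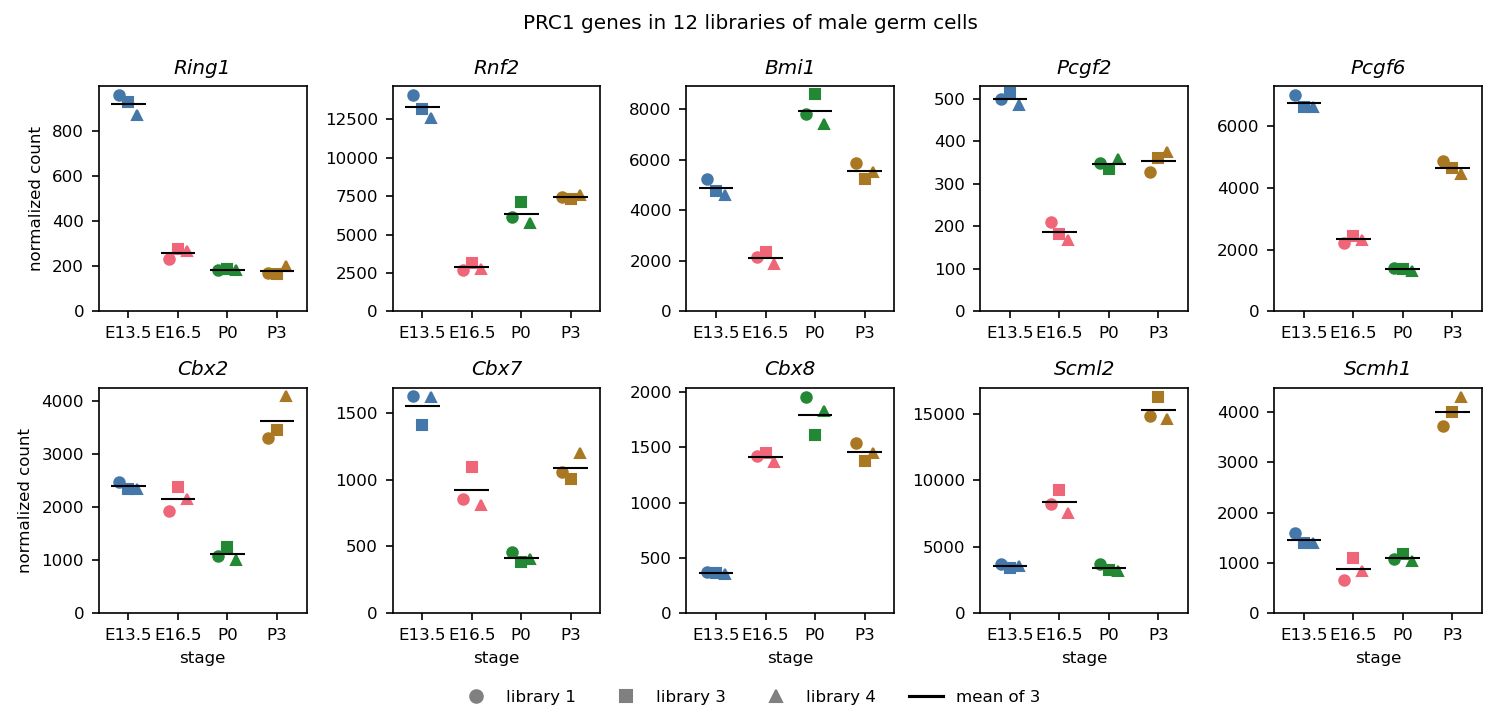
Normalized counts (y axis, linear from 0, a scale per gene) of the 10 PRC1 genes at the 4 stages (x axis). Each point is a library, its shape giving the library number, and the line is the mean of the 3. Rnf2 and Pcgf6 are highest at E13.5, Bmi1 at P0 and Scml2 at P3, and Cbx8 is low at E13.5 alone.

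Sequence upstream of the start is shown for 4 members that moved in different ways. Under the size factors of the file, Bmi1 and Cbx8 were highest at P0, and Rnf2 and Pcgf6 at E13.5. Windows of 250 bases upstream of a RefSeq start (GRCm38.p6) were found for 9 of the 10 members, and for these 4 the start lies within 100 bases of the outer end of the GENCODE gene; bases in annotated exons are left out. Capitals mark CACGTG, the E-box that MGA with MAX is known to bind, which reads the same on both strands.
Bmi1: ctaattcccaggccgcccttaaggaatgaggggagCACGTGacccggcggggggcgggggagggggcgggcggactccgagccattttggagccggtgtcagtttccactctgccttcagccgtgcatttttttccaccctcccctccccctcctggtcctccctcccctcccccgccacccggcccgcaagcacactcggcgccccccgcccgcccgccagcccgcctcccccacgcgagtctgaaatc
Cbx8: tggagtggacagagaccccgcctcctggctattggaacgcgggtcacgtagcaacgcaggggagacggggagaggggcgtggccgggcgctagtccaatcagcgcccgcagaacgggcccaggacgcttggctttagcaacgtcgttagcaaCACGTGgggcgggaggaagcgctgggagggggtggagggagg
Rnf2: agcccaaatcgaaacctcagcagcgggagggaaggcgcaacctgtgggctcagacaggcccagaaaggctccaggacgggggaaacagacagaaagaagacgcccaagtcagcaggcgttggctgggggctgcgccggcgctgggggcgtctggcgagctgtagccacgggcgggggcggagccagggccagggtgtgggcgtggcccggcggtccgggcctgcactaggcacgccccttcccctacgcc
Pcgf6: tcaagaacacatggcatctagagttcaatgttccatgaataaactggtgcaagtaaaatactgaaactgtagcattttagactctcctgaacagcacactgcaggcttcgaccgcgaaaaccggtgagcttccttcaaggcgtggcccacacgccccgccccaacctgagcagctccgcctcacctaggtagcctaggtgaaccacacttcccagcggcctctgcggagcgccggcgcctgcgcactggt
The stretches lie at chr2:18676768-18677017 on the + strand, chr11:119040970-119041163 on the - strand, chr1:151500992-151501241 on the - strand and chr19:47050907-47051156 on the - strand, and are printed 5′ to 3′ along the gene. Bmi1 and Cbx8 each hold 1 E-box, 215 and 98 bases upstream of the start, and Rnf2 and Pcgf6 hold none in these windows. Pcgf2, which is not printed and was highest at E13.5, also holds 1. An E-box therefore did not go with 1 stage among the members. Of 32841 promoter windows of the same length, 6.02% hold CACGTG. Neither GCGGGAA, a core of E2F sites, nor CCGGAAG, a core of ETS sites, was found on either strand in the windows of these 4 genes (3.82% and 6.91% of all windows hold them). Among the members not printed, Scmh1 holds GCGGGAA on the other strand in 1 of its windows. The windows of the 4 printed genes hold 21 (Bmi1), 22 (Cbx8), 20 (Rnf2) and 14 (Pcgf6) CG dinucleotides, against a median of 6 over all windows. These counts cover all 250 bases, and the shorter stretch printed for Cbx8 holds 18. Windows of members not printed hold 5 (Pcgf2), 7 (Scml2), 23 (Cbx7), 30 (Ring1), and 0 and 45 (Scmh1). A match describes letters only.

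Between E13.5 and E16.5, 7 of the 10 genes fell and 2 rose, where 34.6% of all genes tested were lower and 45.5% higher (80.1% in either direction). The median log2 fold change was -0.99 over the 10 genes and 0.31 over all genes. Between E16.5 and P0, 5 rose and 5 fell, where 27.6% of all genes were higher and 33.4% lower (61.0% in either), with medians of -0.073 and -0.010. Between P0 and P3, 6 rose and 2 fell, where 40.1% were higher and 36.4% lower (76.5% in either), with medians of 0.81 and 0.047. The split at the last comparison depended on the scaling: it was 5 higher and 2 lower with TMM factors and 5 higher and 5 lower with either median-of-ratios factors or equal totals. With equal totals the first comparison gave 3 higher and 6 lower and the second 5 higher and 3 lower. Without library 4 at E16.5 and library 1 at P0, the libraries with the highest Leydig marker sums, 9, 8 and 7 of the 10 genes were called in the 3 comparisons, against 9, 10 and 8 with all libraries (Cbx8 and Scmh1 were lost in the second, Rnf2 in the third); the part of other testis cells in these values was otherwise not tested. The stages did not overlap for 9, 9 and 8 of the 10 genes, beside 80.2%, 69.5% and 81.0% of all genes tested, and nothing about the set is read from these counts.

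**Figure D2:**
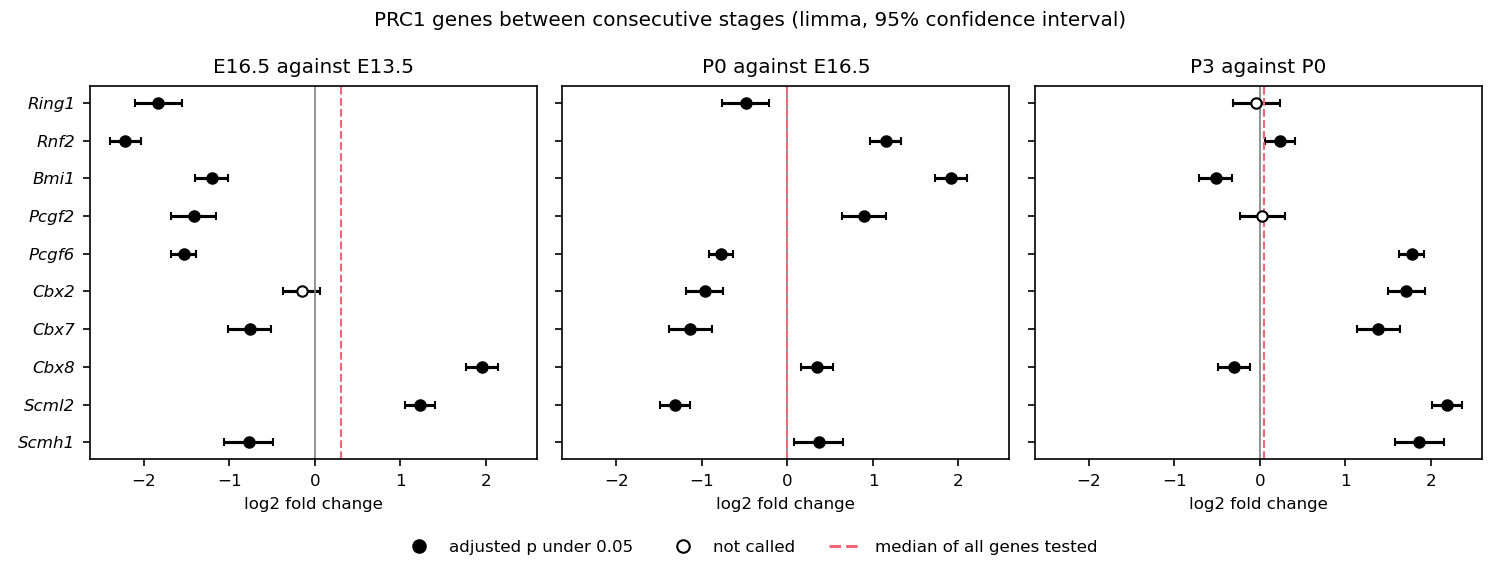
Log2 fold change (x axis) of each PRC1 gene (y axis) in the 3 consecutive comparisons, with the 95% confidence interval of the limma fit. Filled points passed an adjusted p of 0.05, and the dashed line is the median of all genes tested. At E16.5 only Cbx8 and Scml2 are to the right of 0, at 1.96 and 1.23.

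The RING subunits carry the catalytic activity. Rnf2, which encodes RING1B, had normalized counts of 14103, 13207 and 12584 in the E13.5 libraries, 2666, 3153 and 2765 in those of E16.5, 6163, 7123 and 5759.5 in those of P0 and 7454, 7303 and 7545 in those of P3 (normalized counts of libraries 1, 3 and 4 in each case, here and for the other genes). All E13.5 libraries lay above all others and all E16.5 libraries below. Rnf2 fell by 2.22 on the log2 scale at E16.5 (SE 0.0841, limma adjusted p 3.81e-13), the lowest log2 fold change of the set in that comparison. It then rose by 1.15 at P0 (SE 0.0841, adjusted p 4.71e-09). At P3 against P0 it was higher by 0.23 (adjusted p 0.019), a call that did not hold: it was 0.061 (adjusted p 0.476) with TMM factors and -0.21 (adjusted p 0.0279) with median-of-ratios factors, and it was lost without P0 library 1 (adjusted p 0.0555) or library 4 (adjusted p 0.104). Within the (+/-) tag, Rnf2 was lower at P0 than at E13.5 with log2 -1.07 (SE 0.0841, adjusted p 2.91e-09), but 0.10 (adjusted p 0.266) with equal totals.

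Ring1, which encodes RING1A, had normalized counts of 959.5, 926 and 872 in the E13.5 libraries, 230.0, 276 and 268 in those of E16.5, 183, 185 and 181 in those of P0 and 169, 166 and 201 in those of P3. E13.5 stands alone at the top, and the P0 and P3 libraries overlap. Its log2 fold change was -1.83 (SE 0.130, adjusted p 1.06e-09) at E16.5 against E13.5 in limma. The further decrease at P0, -0.49 (SE 0.130, adjusted p 0.00388), was -0.23 (adjusted p 0.128) with median-of-ratios factors and 0.17 (adjusted p 0.263) with equal totals. For P3 against P0 it was -0.043 (95% confidence interval -0.32 to 0.23, adjusted p 0.774), but -0.48 (adjusted p 0.00274) with median-of-ratios factors and -0.88 (adjusted p 2.17e-05) with equal totals. P3 against E13.5 gave -2.36 (SE 0.130, adjusted p 7.00e-11).

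The ratio of paralogs within a library does not depend on its size factor. Divided by the length of merged annotated exons, Rnf2 exceeded Ring1 by 11.4 ± 0.173 times (E13.5), 8.73 ± 0.548 (E16.5), 27.2 ± 2.72 (P0) and 32.9 ± 3.02 (P3). The ranges over libraries did not overlap between any of these stages except P0 and P3. Ring1 accounted for 10.3% ± 0.599 of the RING sum per kb at E16.5 and 2.96% ± 0.278 at P3. These ratios and shares are descriptions, without a test.

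Of the PCGF subunits, Bmi1 and Pcgf2 serve the canonical complexes. Bmi1, first known as an oncogene and as a factor of stem cell renewal, had normalized counts of 5246, 4766 and 4603 in the E13.5 libraries, 2129, 2351 and 1856 in those of E16.5, 7816, 8576 and 7406 in those of P0 and 5846, 5218 and 5527 in those of P3. Each P0 library was above every library of the other stages, and each E16.5 library below. Bmi1 fell by 1.21 on the log2 scale at E16.5 (SE 0.0893, limma adjusted p 1.83e-09) and rose by 1.91 at P0 (SE 0.0893, adjusted p 2.22e-11), the highest value of the set there. At P3 against P0 its log2 fold change was -0.52 (SE 0.0893, adjusted p 5.72e-05). P3 against E13.5 gave 0.18 (95% confidence interval -0.0059 to 0.37, adjusted p 0.0775), which passed with TMM factors (adjusted p 0.0245), median-of-ratios factors (adjusted p 0.0313) and equal totals (adjusted p 2.47e-05), in the fit of these 2 stages alone (adjusted p 0.0299), without E13.5 library 1 (adjusted p 0.0447) and without E16.5 library 4 (adjusted p 0.0455). Of the 50-base words in Bmi1 transcripts, 16.7% also occur in transcripts of other genes, so reads may have been split; the gene sharing most of them, Gm5946, had at most 15.4 normalized counts.

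Pcgf2, also called Mel18, was the lowest of the set per kb of exon at E16.5. It had normalized counts of 499, 513 and 486 in the E13.5 libraries, 209.9, 181 and 169 in those of E16.5, 348, 335 and 358 in those of P0 and 329, 359 and 376 in those of P3. E13.5 is highest, E16.5 lowest, and P0 and P3 overlap. Its log2 fold change was -1.42 (SE 0.123, adjusted p 1.39e-08) at E16.5 and 0.90 (SE 0.123, adjusted p 8.36e-06) at P0 against E16.5. P3 against P0 gave 0.029 (95% confidence interval -0.23 to 0.29) under the scaling of the file, and -0.41 (adjusted p 0.00668) with median-of-ratios factors. Per kb, Bmi1 exceeded Pcgf2 by 8.66 ± 0.579 times (E13.5), 10.1 ± 1.28 (E16.5), 20.3 ± 2.199 (P0) and 13.9 ± 1.63 (P3). Each P0 library was above the range of the other stages in this ratio.

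Pcgf6 belongs to the variant complex that binds germ line gene promoters in other cells. It had normalized counts of 7028, 6644 and 6636 in the E13.5 libraries, 2224, 2448 and 2329 in those of E16.5, 1395, 1372 and 1322 in those of P0 and 4880.1, 4656 and 4459 in those of P3, and no 2 stages overlapped. Pcgf6 fell by 1.54 on the log2 scale at E16.5 (SE 0.0677, limma adjusted p 2.29e-12). It was lower again at P0, with log2 -0.77 (SE 0.0677, adjusted p 4.20e-08), or -0.11 (adjusted p 0.127) with equal totals. At P3 it rose by 1.77 (SE 0.0677, adjusted p 7.48e-13), in the interval in which Bmi1 fell. Bmi1 per kb was 0.910 ± 0.0335 times Pcgf6 (E13.5), 1.14 ± 0.118 (E16.5), 7.36 ± 0.475 (P0) and 1.5003 ± 0.0763 (P3). The P0 libraries, at 7.08 to 7.91, were apart from all the others in this ratio. With the longest transcript as the length, Bmi1 was below Pcgf6 also at E16.5 (588 against 824 per kb) and P3 (1539 against 1647), so only the order at E13.5 and P0 held with both lengths.

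Among all 6 PCGF genes, with Pcgf1, Pcgf3 and Pcgf5 from the list of other PRC1 genes, Bmi1 made up 32.8% ± 0.976 of the summed level per kb (E13.5), 24.5% ± 2.08 (E16.5), 62.3% ± 1.68 (P0) and 31.5% ± 1.02 (P3). Pcgf6 made up 36.0% ± 0.274, 21.4% ± 0.801, 8.48% ± 0.308 and 21.02% ± 0.442 in the same order. Pcgf5 made up 9.99% ± 0.216, 30.1% ± 1.59, 16.7% ± 0.624 and 34.1% ± 0.973, with the highest share at P3. Shares depend on the gene lengths used: with the longest transcript of each gene in place of merged exons, the share of Bmi1 was 50.6% at P0 and 23.8% at E13.5, and still highest at P0.

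**Figure D3:**
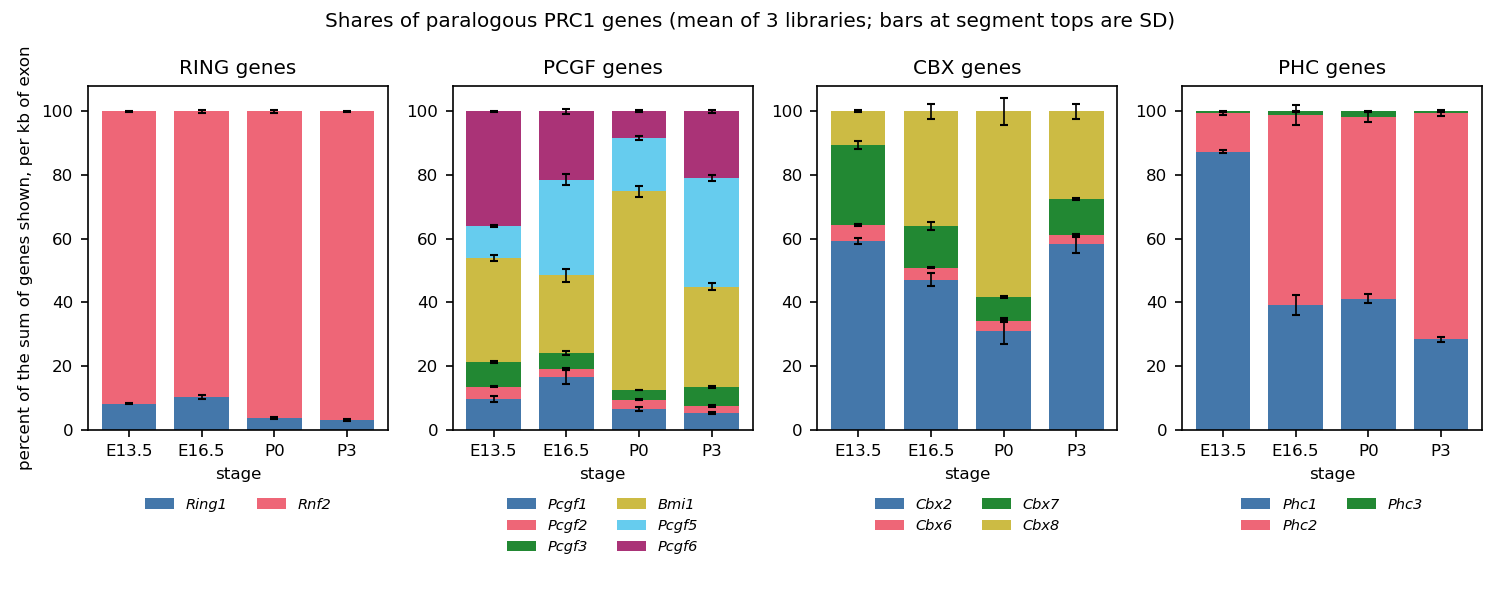
Shares of paralogous genes (y axis, percent of the summed normalized counts per kb of exon of the genes shown in a panel, in the same library) at the 4 stages (x axis) for RING, PCGF, CBX and PHC genes. Segments are means of 3 libraries and bars at their tops are SDs; Bmi1 and Cbx8 take their highest shares at P0, 62.3% and 58.2%, and Phc1 its highest at E13.5, 87.4%.

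The CBX subunits read the PRC2 mark through a chromodomain. Cbx2, whose loss is known to cause male-to-female sex reversal in mice, had normalized counts of 2475, 2339.5 and 2347 in the E13.5 libraries, 1932, 2378 and 2155 in those of E16.5, 1069, 1247 and 997 in those of P0 and 3301, 3459 and 4090.3 in those of P3. P3 is highest and P0 lowest, and E13.5 and E16.5 overlap. The difference of E16.5 from E13.5 was -0.15 (95% confidence interval -0.37 to 0.065, limma adjusted p 0.18), and 0.35 (adjusted p 0.00697) with equal totals. Cbx2 then changed by log2 -0.97 (SE 0.102, adjusted p 4.37e-07) at P0 and rose by 1.71 at P3 (SE 0.102, adjusted p 1.66e-10).

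Cbx7, a CBX protein known from embryonic stem cells, had normalized counts of 1625, 1411 and 1617 in the E13.5 libraries, 854, 1097 and 808 in those of E16.5, 455, 384 and 406 in those of P0 and 1057, 1004 and 1197 in those of P3. The stages descend without overlap from E13.5 through E16.5 to P0, and the P3 libraries overlap those of E16.5. Its log2 fold changes were -0.76 (SE 0.119, adjusted p 1.82e-05) at E16.5, -1.14 (SE 0.119, adjusted p 3.99e-07) at P0 and 1.38 (SE 0.119, adjusted p 1.77e-08) at P3, all in consecutive comparisons by limma. P3 against E16.5 gave 0.25 (95% confidence interval -0.0046 to 0.50, adjusted p 0.0744), which passed without E16.5 library 3 (adjusted p 0.00726).

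Of the CBX members described here, Cbx8 rose at E16.5. It had normalized counts of 375, 363 and 354 in the E13.5 libraries, 1424, 1451 and 1370.0 in those of E16.5, 1959.6, 1609 and 1826 in those of P0 and 1545, 1377 and 1452 in those of P3, so that every library after E13.5 was above every E13.5 library by more than 3 times. Cbx8 rose by 1.96 on the log2 scale at E16.5 (SE 0.0888, limma adjusted p 3.31e-12), the highest value of the set in that comparison. The later differences were 0.34 (SE 0.0888, adjusted p 0.00327) at P0 and -0.30 (SE 0.0888, adjusted p 0.00584) at P3, and their size depended on the scaling. For P0 against E16.5, Cbx8 was higher by 0.60 with median-of-ratios factors and by 1.004 with equal totals. The difference of P3 from P0 was -0.74 and -1.14 with these. P0 against E16.5 gave 0.25 (adjusted p 0.0556) without E16.5 library 4 and P0 library 1. P3 against E16.5 gave 0.042 (95% confidence interval -0.15 to 0.23). Cbx8 lies on the - strand of chromosome 11 and Cbx2 on the + strand 5034 bases away, the 3′ ends of the 2 genes facing each other (GRCm38, GENCODE M21).

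Per kb, Cbx2 exceeded Cbx8 by 5.66 ± 0.0887 times at E13.5 and 1.31 ± 0.127 times at E16.5. The ratio was 0.537 ± 0.114 at P0, where Cbx8 was the higher of the pair in all 3 libraries, and 2.15 ± 0.295 at P3. No 2 stages overlapped in this ratio. Of the sum of Cbx2, Cbx6, Cbx7 and Cbx8, the share of Cbx8 was 10.5% ± 0.322 (E13.5), 36.0% ± 2.25 (E16.5), 58.2% ± 4.14 (P0) and 27.4% ± 2.50 (P3). The share of Cbx7 was 25.3% ± 1.32, 13.2% ± 1.27, 7.62% ± 0.368 and 11.5% ± 0.283, and that of Cbx2 59.4% ± 0.885, 47.1% ± 1.96, 31.0% ± 4.15 and 58.4% ± 2.82.

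The SCM subunits join canonical complexes. Scml2 is an X-linked gene known for its restriction to the male germ line, where its protein holds back genes of other tissues and early germ cells. It had normalized counts of 3668, 3422 and 3581 in the E13.5 libraries, 8259, 9306 and 7529 in those of E16.5, 3665, 3277 and 3155 in those of P0 and 14882, 16319.7 and 14622 in those of P3. P3 is far above the other stages, E16.5 comes next, and E13.5 and P0 overlap. Scml2 rose by 1.23 on the log2 scale at E16.5 (SE 0.0831, limma adjusted p 5.79e-10), changed by log2 -1.31 (SE 0.0831, adjusted p 7.86e-10) at P0, and rose by 2.18 at P3 (SE 0.0831, adjusted p 7.35e-13), the highest value of the set there. P0 against E13.5 gave -0.082 (95% confidence interval -0.26 to 0.094), which depended on scaling: 0.40 (adjusted p 0.000149) with median-of-ratios factors and 1.09 (adjusted p 3.12e-10) with equal totals. In the comparison of P3 with E16.5, within the (-/-) tag, Scml2 was higher by 0.87 (SE 0.0831, adjusted p 7.81e-08).

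Scmh1, which encodes a more broadly expressed SCM protein, had normalized counts of 1602, 1392 and 1399 in the E13.5 libraries, 668, 1107 and 845 in those of E16.5, 1078, 1186 and 1041 in those of P0 and 3722, 4007 and 4305 in those of P3. The P3 libraries are apart from the rest, and the E16.5 libraries overlap those of P0. Its log2 fold change was -0.77 (SE 0.135, adjusted p 6.07e-05) at E16.5, or -0.27 (adjusted p 0.0949) with equal totals. At P0 against E16.5 it was 0.36 (SE 0.135, adjusted p 0.0286), a call lost without E16.5 library 1 (adjusted p 0.185) or 4 (adjusted p 0.069), without P0 library 1 (adjusted p 0.0519) or 3 (adjusted p 0.104), and with no filter on low counts (adjusted p 0.0538). At P3 Scmh1 rose by 1.86 (SE 0.135, adjusted p 1.96e-09). Scml2 per kb was 3.10 ± 0.174 times Scmh1 (E13.5), 12.6 ± 2.74 (E16.5), 3.90 ± 0.407 (P0) and 4.86 ± 0.472 (P3), with the E16.5 libraries apart from all others.

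On a common scale, normalized counts per kb of exon, the order of the 10 genes also differed between stages. Rnf2 came first at E13.5 with 3222 ± 185 per kb, ahead of Pcgf6 and Bmi1, in this order in all 3 libraries. Scml2 came first at E16.5 with 1376 ± 147 and at P3 with 2513 ± 150.4. Bmi1 came first at P0 with 1996 ± 149. Ring1 was last at P0 and P3, at 56.5 ± 0.590 and 55.1 ± 6.09. Neighbours in this order whose library ranges overlapped were Pcgf6 with Bmi1 and Scml2 with Cbx2 at E13.5; Bmi1, Cbx2 and Pcgf6, and Cbx7 with Scmh1, at E16.5; Scml2 with Cbx8, and Pcgf6 with Cbx2, at P0; and Pcgf6 with Cbx2 at P3. The first place was the same at each stage with the longest transcript as the length, while Cbx7 took the last place at P0.

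In the comparisons within 1 genotype tag the members split differently, without a test of that difference. At P0 against E13.5, both tagged (+/-), 7 of the 10 genes were lower and 2 (Bmi1 and Cbx8) higher, where 40.5% and 45.7% of all genes were (86.1% in either direction); the stages did not overlap for 9 genes, beside 88.1%. With equal totals the 10 genes were 5 higher and 3 lower, with Cbx8, at 3.46, still the highest. At P3 against E16.5, both tagged (-/-), 7 were higher and 1 (Ring1) lower, where 34.2% and 35.2% of all genes were (69.5% in either); 8 did not overlap, beside 71.6%. The split was the same with all 4 other scalings (TMM, median-of-ratios, poscounts and equal totals). At P3 against E13.5, 4 were higher (Cbx2, Cbx8, Scml2 and Scmh1) and 5 lower (Ring1, Rnf2, Pcgf2, Pcgf6 and Cbx7), where 39.2% and 31.2% were (70.4% in either); 9 did not overlap, beside 71.3%. With equal totals it was 5 higher and 3 lower. These comparisons share libraries with each other and with the consecutive ones.

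**Figure D4:**
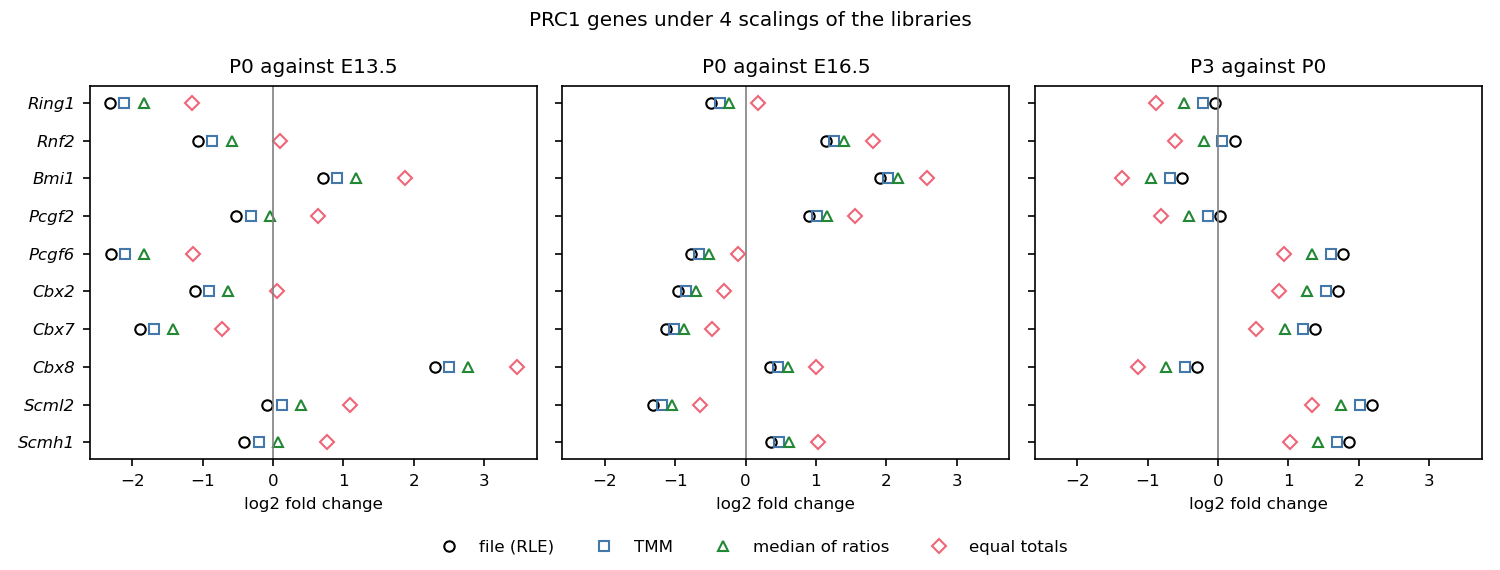
Log2 fold change (x axis) of each PRC1 gene (y axis) in the 3 comparisons that involve P0, under the size factors of the file, TMM factors, median-of-ratios factors and equal library totals. Equal totals move every gene to the right in both comparisons of P0 with an earlier stage and to the left at P3 against P0; Cbx8 stays above 0 at P0 against E13.5, from 2.30 to 3.46.

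The other subunits and partners of PRC1 were described from a list of 20 genes, all of which were tested. At E16.5 against E13.5, 6 were higher and 9 lower, with a median log2 fold change of -0.18, where 45.5% of all genes tested were higher and 34.6% lower (80.1% in either) around a median of 0.31. At P0 against E16.5, 4 were higher and 12 lower (median -0.37), where 27.6% of all genes tested were higher and 33.4% lower (61.0% in either) around a median of -0.010. At P3 against P0, 16 were higher and 3 lower (median 0.60), where 40.1% of all genes tested were higher and 36.4% lower (76.5% in either) around a median of 0.047. Nothing particular to this list or the 2 after it is read from their counts. With equal totals the splits were 12 higher and 8 lower, 11 higher and 3 lower and 8 higher and 10 lower, and with median-of-ratios factors 7 higher and 8 lower, 6 higher and 8 lower and 9 higher and 4 lower. The single genes named below, from this list and the 2 lists after it, kept their direction under all 4 other scalings in the comparisons given, except Mga. The sizes of their log2 fold changes moved with the scaling, most in the comparisons with P0.

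**Figure D5:**
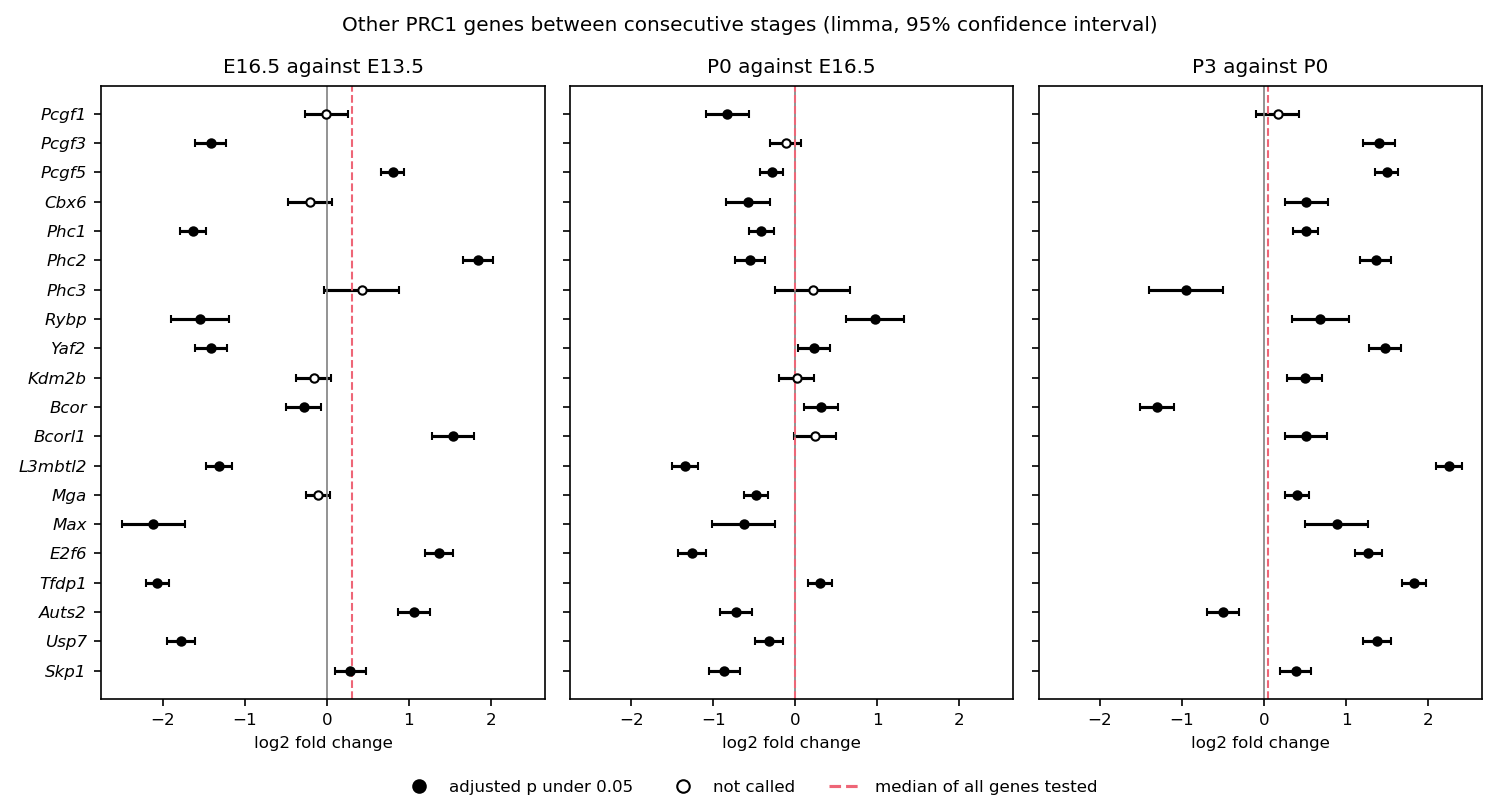
Log2 fold change (x axis) of the 20 other PRC1 genes (y axis) in the 3 consecutive comparisons, with the 95% confidence interval; filled points passed an adjusted p of 0.05 and the dashed line is the median of all genes tested. Phc1 and Phc2 part at E16.5, at -1.63 and 1.84, and L3mbtl2 is furthest to the right at P3 against P0, at 2.25.

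The polyhomeotic genes Phc1 and Phc2, whose proteins polymerise canonical PRC1, moved apart. Phc1 went from 10643 ± 87.3 normalized counts at E13.5 to 3434 ± 223 at E16.5 (log2 fold change -1.63, SE 0.0733, adjusted p 2.90e-12). Phc2 went from 1952 ± 118.95 to 7017 ± 631 (log2 fold change 1.84, SE 0.0885, adjusted p 6.70e-12) and to 12318 ± 1484 at P3, higher than at P0 by 1.36. Phc1 made up 87.4% ± 0.554 of the PHC sum per kb (E13.5), 39.1% ± 3.20 (E16.5), 41.1% ± 1.37 (P0) and 28.3% ± 0.901 (P3).

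Partners of PCGF6 were listed too. Mga, which encodes the DNA-binding subunit of that complex, gave -0.11 at E16.5 against E13.5 (95% confidence interval -0.26 to 0.038, adjusted p 0.156), or 0.40 (adjusted p 0.00027) with equal totals. Its later values were -0.48 (SE 0.0698, adjusted p 1.67e-05) at P0 and 0.40 (SE 0.0698, adjusted p 7.01e-05) at P3. These were 0.18 (adjusted p 0.0501) and -0.44 (adjusted p 0.000101) with equal totals, and P3 against P0 was -0.042 (adjusted p 0.59) with median-of-ratios factors. L3mbtl2 had normalized counts of 6262, 6079.6 and 6321 in the E13.5 libraries, 2391, 2751 and 2399 in those of E16.5, 1006, 979 and 980.3 in those of P0 and 4430.4, 4673 and 5065 in those of P3, the same order of stages as Pcgf6. Its log2 fold changes were -1.31 (SE 0.0749, adjusted p 6.40e-11), -1.34 (SE 0.0749, adjusted p 1.71e-10) and 2.25 (SE 0.0749, adjusted p 1.87e-13) in the consecutive comparisons. Max, the partner of MGA, fell by 2.12 at E16.5 (SE 0.182, adjusted p 1.27e-08). Tfdp1, the partner of E2F proteins, had -2.06 (SE 0.0685, adjusted p 8.07e-14) there, with a rise of 1.83 at P3. E2f6 differed from them in direction at E16.5, with 1.37 (SE 0.0798, adjusted p 8.44e-11) at E16.5, -1.26 (SE 0.0798, adjusted p 7.81e-10) at P0 and 1.27 (SE 0.0798, adjusted p 2.96e-10) at P3. Of the genes of other variant complexes, Pcgf5 rose by 0.80 at E16.5 (adjusted p 6.68e-09) and by 1.49 at P3 (adjusted p 3.68e-12). Rybp rose by 0.97 at P0 (adjusted p 8.98e-05). Usp7, a deubiquitinase, fell by 1.78 at E16.5 (adjusted p 3.21e-12). Bcor, a corepressor paired with PCGF1, fell by 1.30 at P3 (adjusted p 3.25e-09).

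The enzymes and cofactors that remove ubiquitin from H2A were a list of 6 genes. At E16.5 against E13.5, 3 were higher and 3 lower; at P0 against E16.5, 1 and 2; and at P3 against P0, 2 and 2, beside the shares of all genes given above for these comparisons (45.5% higher and 34.6% lower; 27.6% higher and 33.4% lower; 40.1% higher and 36.4% lower). The medians of the 6 were 0.00083, -0.35 and -0.0096, and those of all genes 0.31, -0.010 and 0.047. With equal totals the splits were 4 higher and 1 lower, 3 higher and 1 lower and 0 higher and 4 lower. Asxl3, a cofactor of the deubiquitinase BAP1, went from 21.1 ± 16.6 normalized counts at E13.5 to 322 ± 29.9 at E16.5 (log2 fold change 4.11, SE 0.378, adjusted p 3.13e-08) and fell by 2.07 at P3 (SE 0.378, adjusted p 0.000105). Usp16, another H2A deubiquitinase, fell by 1.06 at E16.5 (SE 0.0744, adjusted p 9.07e-10). For Bap1 itself, P0 against E16.5 gave -0.83 (SE 0.0780, adjusted p 1.05e-07).

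The last list held 11 germ line and meiotic genes known as PRC1 targets in embryonic stem cells or germ cells. At E16.5 against E13.5, 7 were higher and 4 lower (median 0.65), at P0 against E16.5, 2 and 8 (median -0.59), and at P3 against P0, 9 and 2 (median 1.12). All genes tested had 45.5% higher and 34.6% lower in the first of these comparisons (median 0.31), 27.6% higher and 33.4% lower in the second (median -0.010) and 40.1% higher and 36.4% lower in the third (median 0.047). With equal totals the splits were 9 higher and 2 lower, 5 higher and 2 lower and 7 higher and 3 lower. Stra8, the retinoic acid target that opens meiosis, had 125 ± 25.8 normalized counts (E13.5), 436 ± 4.03 (E16.5), 290.4 ± 32.7 (P0) and 3937 ± 327 (P3). Smc1b, a meiotic cohesin gene, rose by 2.21 at P3 (adjusted p 8.87e-14). Tex101, a germ cell surface gene, rose by 3.798 at E16.5 (adjusted p 8.28e-16), when Dazl, a germ cell RNA-binding gene, fell by 1.95 (adjusted p 4.16e-13). Ddx4, the gene whose reporter marked the cells, gave -1.10 (SE 0.0750, adjusted p 2.01e-09) for P0 against E16.5.

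For the 3 members with the widest range over stages, the genes of the most similar stage profile were sought among 12094 named genes with a mean of at least 100 normalized counts. Likeness was the root mean square distance between 4 centred stage means on the log2 scale, and is given without a test. Nearest to Ring1 were Echdc2 (distance 0.0628) and Cntfr (0.0702). Nearest to Pcgf6 were Uri1 (distance 0.0229) and Dnajc24 (0.0359). Nearest to Cbx8 were Pgap3 (distance 0.0452) and Phf2 (0.0518).

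The 10 members are protein-coding genes, at these places in GRCm38 by GENCODE M21: Ring1 (ENSMUSG00000024325, chromosome 17, 34020792 to 34024680, - strand); Rnf2 (ENSMUSG00000026484, chromosome 1, 151458004 to 151500955, - strand). Bmi1 is ENSMUSG00000026739, chromosome 2, 18677018 to 18686629, + strand. Pcgf2 is ENSMUSG00000018537, chromosome 11, 97688823 to 97700497, - strand. Pcgf6 is ENSMUSG00000025050, chromosome 19, 47033617 to 47050906, - strand. Cbx2 is ENSMUSG00000025577, chromosome 11, 119022962 to 119031270, + strand. Cbx7 is ENSMUSG00000053411, chromosome 15, 79915807 to 79971119, - strand. Cbx8 is ENSMUSG00000025578, chromosome 11, 119036305 to 119040969, - strand. Scml2 is ENSMUSG00000000037, chromosome X, 161117193 to 161258213, + strand. Scmh1 is ENSMUSG00000000085, chromosome 4, 120405281 to 120530186, + strand. Exons of Rnf2 overlap those of Trmt1l, on the opposite strand, over 3.83% of their length, and exons of Cbx7 overlap those of Apobec3, also opposite, over 1.54%; reads there cannot be assigned to a strand, since the strand setting is not given in the sources used here.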

How the data were processed

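The authors deposited 1 table of 55487 genes in 12 libraries. Libraries were made with SMART-seq v4 and TruSeq kits, per the labels' protocols. The submitters' processing notes name bcl2fastq 2.20, cutadapt 1.18, HISAT2 2.1.0, featureCounts 1.5.2 and DESeq2 1.26.0, with mm10 and GRCm38. The deposited signal is a read count per gene divided by a factor per library: all values (100%) were whole multiples of 1 step per library within 0.001, which gave back the reads. Columns carry the numbers 1, 3 and 4, not those of the titles, and were matched to stages only. Symbols were found for 99.4% of identifiers.

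The filter asked for 10 or more normalized counts in 3 or more libraries. limma 3.58.1 in R 4.3.3 tested log2(normalized count + 1) with 4 stages in 1 trended fit (8 residual degrees of freedom) and Benjamini-Hochberg adjustment over 22384 genes. Other size factors, pseudocounts (0.1 and 10), no filter, fits of 2 stages, leaving out each library, and edgeR 4.0.16 and DESeq2 1.42.0 on the recovered reads were tried. edgeR called 17851, 14370 and 17358 genes in the consecutive comparisons, and limma 17932, 13658 and 17122. The tests were tried on simulated data. Named genes are the 10 members, their paralogs, the highest and lowest called genes of 3 lists, and the nearest profiles; other list genes (such as Mga, Tfdp1, E2f6, Usp7 and Smc1b) were named after their values were seen. A gene of the lists is not reported here and was left out of counts and shares. Members and lists were chosen with earlier results of these data known. Python 3.11.15 was used for the rest.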

Additional observations from a re-analysis of the deposited data

How the results depend on the processing

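The titles' replicate numbers could not be tied to columns. A fit with the column number (1, 3 or 4) as a replicate block called 17911, 13529 and 17028 genes in the consecutive comparisons, and changed no call or direction of a member. Deviations from the stage mean correlated at -0.036 to 0.042 over the 18 pairs of libraries that share a number, none above 0.1. The 36 pairs of different numbers gave -0.072 to 0.053. A correlation over all genes tested cannot show an effect on few genes, and what the numbers stand for is not known. Counts of called genes and of called members in either direction stayed within 1.5 times their values in the report under every alternative run, leaving out each library included. For the members this bound is weak. With 8 to 10 of 10 called in the report it could not be passed upward, and 7 called members still lay within it. Their splits into higher and lower did not stay so with other size factors: the members lower at P3 against P0 were 2 with the file's factors and 5 with median-of-ratios factors or equal totals. edgeR and DESeq2 gave the same split of members as limma in all 6 comparisons. Of the 60 pairs of member and comparison, 42 kept direction and call under all 24 alternatives. Direction, counted as turned where either value was called, turned with equal totals for Cbx2 at E16.5 against E13.5 (0.35), Ring1 at P0 against E16.5 (0.17), Rnf2 (-0.61) and Pcgf2 (-0.81) at P3 against P0, and Rnf2 (0.10), Pcgf2 (0.64), Cbx2 (0.051), Scml2 (1.09) and Scmh1 (0.76) at P0 against E13.5. It turned with median-of-ratios factors for Rnf2 (-0.21) and Pcgf2 (-0.41) at P3 against P0, and for Scml2 (0.40) and Scmh1 (0.070) at P0 against E13.5. Mga, of the list of other PRC1 genes, turned with equal totals at E16.5 against E13.5 (0.40) and P0 against E16.5 (0.18). For P3 against P0 it turned with equal totals (-0.44) or median-of-ratios factors (-0.042). These alternatives differ from the file only in the size factors. Stag3, of the meiotic list, lost its call at P3 against P0 without P0 library 3 or P3 library 1 or 3. The block, the fit without E16.5 library 4 and P0 library 1, and the other transcript length were chosen after seeing the data.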
